A study of Mus musculus with 4 samples.

Results

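The genes described here are 8 members of the TREM2 receptor pathway, Trem2, Tyrobp, Syk, Plcg2, Inpp5d, Cd33, Vav1 and Grb2, picked by symbol from the 32285 genes of the deposited matrices. All 8 were measured in each library. RNA of single cells was sequenced after capture in droplets, from brain cortex of male mice (C57BL/6N, 10 months old). The mice had sham surgery or a stroke by dMCAO, in which the distal branch of the middle cerebral artery is blocked. They received an isotype control antibody, anti-VCAM1 or anti-VLA4 for 10 weeks. VCAM1 is an adhesion molecule of activated endothelium, and VLA4 is the integrin by which leukocytes bind it. The 4 groups were sham with isotype, then stroke with isotype, with anti-VCAM1 or with anti-VLA4, and values below follow that order unless said otherwise. The infarct core and about 2 mm of cortex around it were pooled from 4 to 5 mice per group into 1 library. There were therefore no replicate libraries: a difference is between libraries, has no p-value, and every 95% interval covers counting error only.

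TREM2 is a surface receptor of microglia and other macrophages that binds lipids and lipoproteins. It has no signalling domain of its own and pairs mainly with the adaptor TYROBP, also called DAP12, whose tail carries an immunoreceptor tyrosine-based activation motif (ITAM). Once Src family kinases phosphorylate the motif, the kinase SYK docks there and passes the signal to phospholipase C gamma 2 (Plcg2), the exchange factor VAV1 and the adaptor GRB2. INPP5D (SHIP1), a lipid phosphatase, holds this signalling back. CD33, a sialic acid receptor, is grouped with it below as a brake after the role of human CD33. Whether mouse CD33 inhibits the pathway was not tested. In mouse models of brain disease, microglia need TREM2 to take on the full disease-associated state.

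The ITAM of Tyrobp is shown first, since SYK docks on it. Its coding stretch of 45 bases, 15 codons from the first tyrosine codon to the end of the motif, lies on chromosome 7 of GRCm38. It has 6 bases at the end of exon 4 (chr7:30415670-30415675) and 39 bases in exon 5, the last of 5 (chr7:30417344-30417382). The 2 tyrosine codons are in capitals.
Tyrobp ITAM: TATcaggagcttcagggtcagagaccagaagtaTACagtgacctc

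Promoters of Trem2 and Inpp5d are shown because these genes moved in opposite directions among the microglia sub-clusters described further on. Each window of 300 bases runs from 250 before to 50 after the start of transcription on the plus strand (RefSeq, GRCm38.p6). The Trem2 window is chr17:48346151-48346450 and the Inpp5d window is chr1:87620062-87620361. Capitals mark GAGGAA or its reverse complement TTCCTC, letters found in the core of binding sites of PU.1, the main transcription factor of macrophages.
Trem2 promoter: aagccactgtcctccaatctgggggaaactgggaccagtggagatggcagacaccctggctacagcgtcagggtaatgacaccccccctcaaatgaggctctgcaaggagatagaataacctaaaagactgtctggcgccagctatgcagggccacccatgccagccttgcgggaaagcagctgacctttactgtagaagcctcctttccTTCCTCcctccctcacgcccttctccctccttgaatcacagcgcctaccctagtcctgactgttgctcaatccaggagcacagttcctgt
Inpp5d promoter: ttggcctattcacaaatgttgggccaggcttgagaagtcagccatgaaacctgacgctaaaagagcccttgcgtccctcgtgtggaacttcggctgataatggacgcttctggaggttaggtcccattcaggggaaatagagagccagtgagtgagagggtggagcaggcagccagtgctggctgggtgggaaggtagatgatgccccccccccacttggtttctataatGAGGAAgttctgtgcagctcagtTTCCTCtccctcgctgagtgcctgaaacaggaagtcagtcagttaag

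The Trem2 window held 1 match, on the opposite strand, and the Inpp5d window held 2, 1 on each strand. Of the 8 genes, 7 had a promoter in the table, with 9 windows in all, and Tyrobp is named only. Matches were in 6 of these 9 windows, belonging to 6 of the 7 genes, against 9289 of 32851 mouse windows of the same length (28.3%). Plcg2 had none, Cd33 and Vav1 had 1 each, and Syk and Grb2 had matches in 1 of 2 windows. A match is a description of letters and not a site.

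In GRCm38 the receptor and adaptor genes are short and most of the others are long. Trem2 (ENSMUSG00000023992) spans 7.75 kb at chr17:48346401-48354147 and Tyrobp (ENSMUSG00000030579) spans 3.83 kb at chr7:30413760-30417585, both on the plus strand. Syk (ENSMUSG00000021457) covers 65.6 kb at chr13:52583173-52648792, and Plcg2 (ENSMUSG00000034330) covers 137 kb at chr8:117498291-117635142, both also on the plus strand. Inpp5d (ENSMUSG00000026288) covers 100.2 kb at chr1:87620312-87720507 on the plus strand. Cd33 (ENSMUSG00000004609) spans 20.2 kb at chr7:43524216-43544428 on the minus strand. Vav1 (ENSMUSG00000034116) spans 48.9 kb at chr17:57279100-57328031 on the plus strand, and Grb2 (ENSMUSG00000059923) spans 64.6 kb at chr11:115644045-115708597 on the minus strand. The median span of all matched genes was 12.3 kb. Plcg2 overlaps the predicted gene Gm27361 on the opposite strand and Grb2 overlaps Gm11702 on its own strand. How reads in the overlaps were counted was not tested.

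After filtering, 1516, 2832, 4662 and 6209 cells were kept, with 9892316 to 33386331 UMIs per library and median UMI counts per cell of 4516.5 to 5466. A UMI (unique molecular identifier) marks 1 captured RNA molecule. Microglia-like cells numbered 690, 1472, 1818 and 2458, and all 9 microglia markers were detected in them. Border-macrophage-like cells, the macrophages of the meninges and vessel sheaths, numbered 115, 192, 61 and 91. The sham and stroke isotype libraries shared 59 barcodes, 3.83% of the smaller library, and the other pairs shared 1 to 8. Among microglia-like cells 18, 26, 2 and 11 carried a shared barcode, and among border-macrophage-like cells 7, 8, 0 and 0. Leaving them out changed no count of members past the fold between libraries given below. The comparison of disease-associated with homeostatic cells was not repeated without them. In border-macrophage-like cells the log2 ratios of stroke with isotype over sham changed sign for Plcg2 and Vav1, to 0.052 and 0.066. Levels are CPM, a gene's UMIs per 1000000 UMIs, summed over all cells of a class in a library. The genes' levels are compared between cells and libraries and not with each other.

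Across cell classes, Trem2 was a microglial transcript with a lower level in border macrophages. It ran from 1216 to 1483 CPM over the 4 libraries in microglia-like cells and from 486 to 612 in border-macrophage-like cells, with no overlap. The border-macrophage-like class was mixed. Its sub-cluster 5, led by the microglial genes Csmd3 and Nav3, had 925 CPM in stroke with isotype (22 cells). Its sub-cluster 0, low in MHC class II genes, had 290 to 445 CPM over 3 libraries. Over the libraries with at least 20 cells it was 115 to 544 CPM in B-cell-like cells (3 libraries), 59.4 to 278 in the unnamed cluster 20 (3), 33.7 to 184 in the unnamed cluster 18 (3), 48.4 to 225 in T-cell-like cells (4) and 50.5 to 177 in astrocyte-like cells (3). These ranges overlap, so no order among them is given. In T-cell-like cells the 10 cells with most Trem2 UMIs held 87.5% to 97.8% of them, and in B-cell-like cells 87.6% to 100%, where 1 cell held all 25 UMIs of the anti-VLA4 library. A few cells set both levels. Endothelial-like cells had 2.40 to 36.2 CPM. After each cell was thinned to 1000 UMIs, 58.5%, 62.8%, 63.6% and 66.5% of microglia-like cells had a Trem2 UMI, and unthinned 86.7%, 86.0%, 86.0% and 86.8%. In endothelial-like cells, which should lack it, the thinned shares were 0.220%, 1.39%, 2.34% and 1.84%. Median depths were 7339.5, 6093, 5308.5 and 5196.5 UMIs in microglia-like and 3766.5, 3719, 3862 and 4147 in endothelial-like cells.

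**Figure D1:**
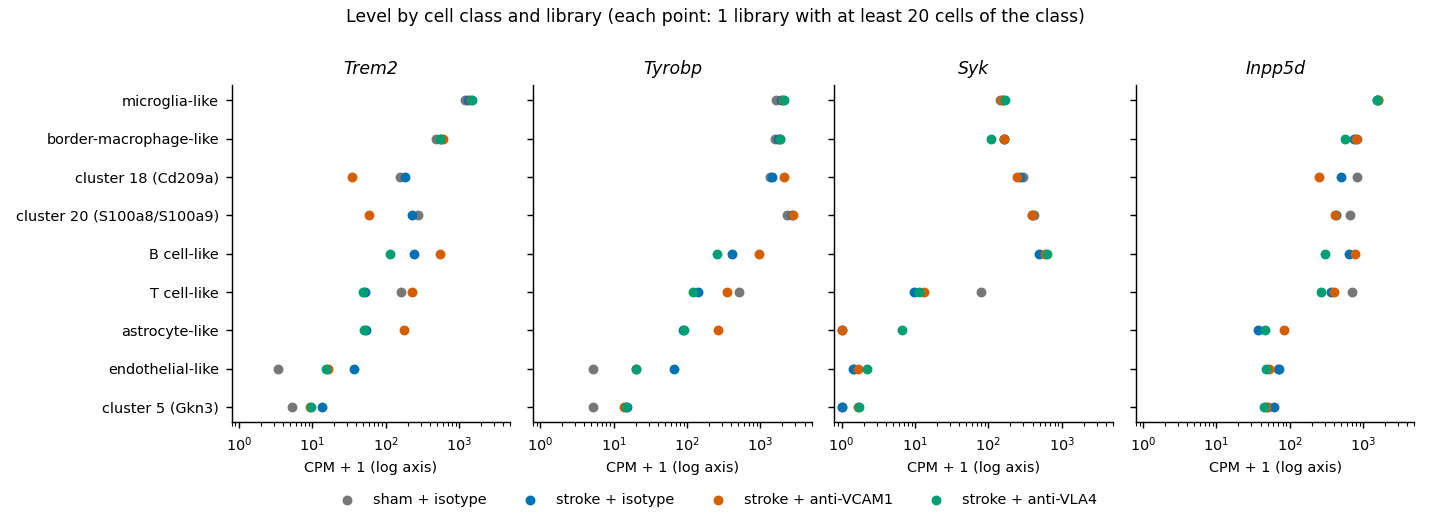
Level of Trem2, Tyrobp, Syk and Inpp5d as CPM + 1 on a log axis, by cell class, with 1 point per library that had at least 20 cells of the class. Trem2 points of microglia-like cells (1216 to 1483 CPM) lie above those of border-macrophage-like cells (486 to 612), while Tyrobp points of these classes overlap and Syk points are highest in B-cell-like cells (482 to 634).

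The adaptor and the kinase were spread wider than the receptor. Tyrobp measured 1632 to 2084 CPM in microglia-like cells and 1598 to 1881 in border-macrophage-like cells, which overlap. Cluster 20, which was led by the myeloid genes S100a9 and S100a8, had 2289 to 2774 CPM, above both classes. In cluster 18, led by Tnip3, Cd209a and MHC class II genes, it was 1358 to 2099 CPM. Syk was highest in B-cell-like cells (482 to 634 CPM), where it also serves the B cell receptor, followed by cluster 20 (396 to 413) and cluster 18 (247 to 294). Microglia-like cells had 141 to 166 CPM of Syk and border-macrophage-like cells 107 to 165, and these ranges overlap.

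Among effectors, Plcg2 measured 239 to 267 CPM in microglia-like cells, 165 to 220 in B-cell-like cells, 214 to 239 in cluster 20 and 90.2 to 140 in border-macrophage-like cells. Vav1, an exchange factor of blood cells, was 191 to 215 CPM in microglia-like, 111 to 149 in border-macrophage-like and 58.3 to 91.7 in T-cell-like cells. Grb2, an adaptor of most cell types, had 287 to 304 CPM in microglia-like cells, 310 to 354 in B-cell-like and 121 to 137 in endothelial-like cells. Of the brakes, Inpp5d was 1541 to 1592 CPM in microglia-like cells, above 558 to 814 in border-macrophage-like and 263 to 708 in T-cell-like cells. Cd33 was 222 to 236 CPM in microglia-like and 75.1 to 164 in border-macrophage-like cells. The microglial ranges of Trem2, Inpp5d, Plcg2, Cd33, Vav1 and Grb2 therefore lay above those of border macrophages in every library, and those of Tyrobp and Syk did not.

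Within microglia-like cells none of the 8 genes moved by a log2 ratio of 0.5 (1.41-fold) in any comparison, the size used here to call a gene past the fold. Of all genes tested, 8.75% were past it in the stroke comparison (stroke with isotype over sham with isotype), 6.17% in the anti-VCAM1 comparison and 7.48% in the anti-VLA4 comparison. For 8 genes a count of 0 is near these shares, so it is not a result about the pathway. The antibody comparisons are both over stroke with isotype and so share that library.

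Tyrobp, Syk and Trem2 had the largest ratios of the 8 after stroke, in that order. Trem2 measured 1216, 1339, 1458 and 1483 CPM, so the sham library was lowest and the antibody libraries were highest. Its log2 ratio was 0.14 in the stroke comparison (0.096 to 0.18). In the anti-VCAM1 and anti-VLA4 comparisons it was 0.12 (0.088 to 0.16) and 0.15 (0.11 to 0.18). Tyrobp measured 1632, 1909, 2019 and 2084 CPM, in the same order of libraries. Its log2 ratios were 0.23 (0.19 to 0.26), 0.081 (0.052 to 0.11) and 0.13 (0.099 to 0.15). The thinned share of cells with a Tyrobp UMI was 61.1%, 66.5%, 67.5% and 68.4%. These steps are below the fold but their intervals exclude 0. With the trend over gene span removed, the Trem2 ratios with anti-VCAM1 and anti-VLA4 were 0.049 and 0.091. The anti-VLA4 ratios of Trem2 and Tyrobp moved by more than their counting interval in 5 and 6 of 16 alternatives.

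**Figure D2:**
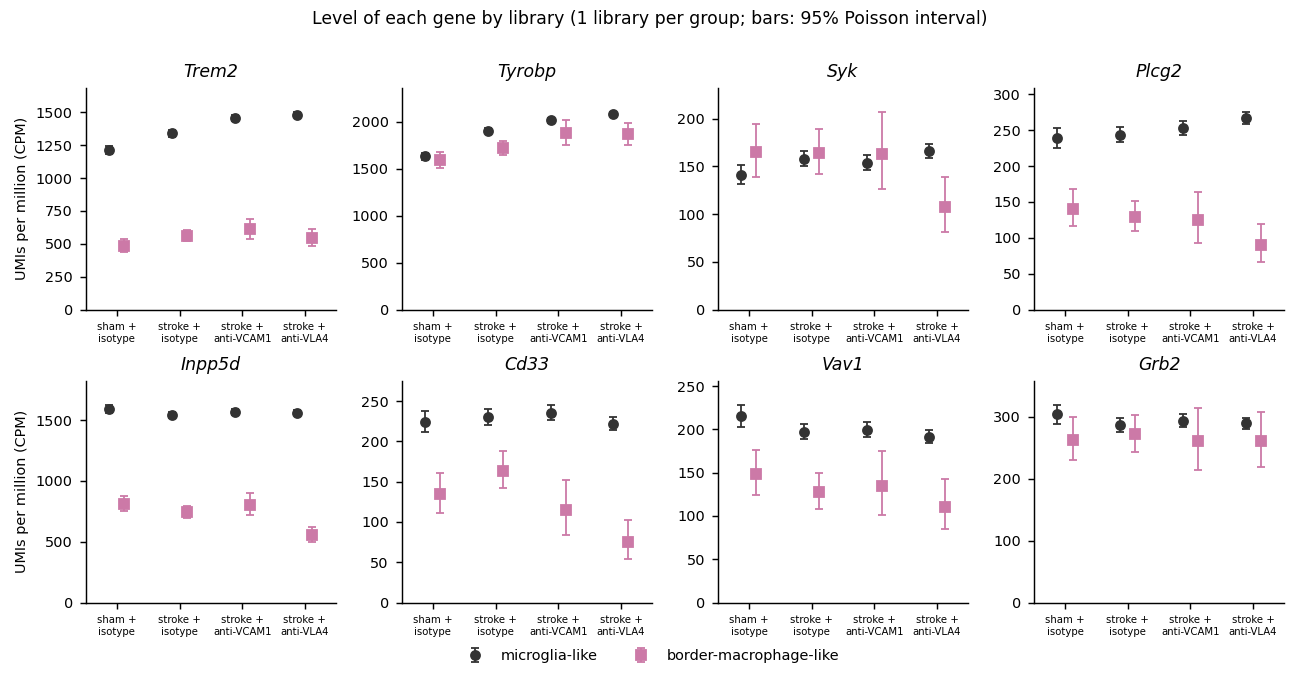
CPM of each of the 8 genes in microglia-like and border-macrophage-like cells, 1 point per library with its exact Poisson 95% interval, which covers counting error only. Trem2 and Tyrobp points of microglia-like cells are lowest in the sham library, at 1216 and 1632 CPM, and Inpp5d points stay between 1541 and 1592.

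Among the kinase, the effectors and the brakes the libraries had no common order. Syk measured 141, 158, 154 and 166 CPM, a log2 ratio of 0.16 in the stroke comparison (0.031 to 0.29) with the sham library lowest. Plcg2 measured 239, 244, 253 and 267 CPM, and its ratio in the anti-VLA4 comparison was 0.13 (0.054 to 0.21). Vav1 measured 215, 197, 199 and 191 CPM, with a ratio of -0.12 (-0.23 to -0.015) in the stroke comparison. Sham was thus highest for Vav1, the reverse of Trem2. Grb2 measured 304, 287, 294 and 289 CPM. Inpp5d measured 1592, 1541, 1570 and 1563 CPM, and its thinned share of cells was 79.2%, 76.6%, 76.0% and 75.7%. Cd33 measured 224, 230, 236 and 222 CPM. The widest log2 ratio of either brake in the 3 comparisons was -0.050, for Cd33 with anti-VLA4.

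The makeup of microglia-like cells moved between the same libraries. Cells of the cytokine-high sub-cluster, led by Egr1 and other immediate early genes, were 36.7%, 23.8%, 11.6% and 8.22%. This sub-cluster met the marker rule for Il1a, Tnf and Nfkbiz, and not for the listed Il1b, Ccl3, Ccl4, Ccl2 and Cxcl2. The unnamed sub-cluster 4 met it for Ccl3 and Ccl4. Homeostatic cells were 31.2%, 36.4%, 44.9% and 50.7%, disease-associated cells 1.45%, 5.43%, 5.28% and 4.88%, and interferon-responsive cells 1.45%, 1.36%, 1.16% and 1.51%. With 1 set of sub-cluster weights for all libraries, the stroke ratio was 0.070 for Trem2 and 0.15 for Tyrobp, and the Tyrobp ratios with anti-VCAM1 and anti-VLA4 were -0.011 and 0.039. Of 7 genes of RNA quality and dissociation stress, Hspa1a was past the fold higher (0.82) and Egr1 lower (-0.56) in the stroke comparison. In the antibody comparisons 4 were past the fold lower with anti-VCAM1 and 5 with anti-VLA4, with Egr1 at 1088, 738, 500.4 and 308 CPM. Endothelial markers summed to 45.7, 45.1, 114 and 107 CPM in microglia-like cells, with 0 of 8 undetected. The part of stress genes and endothelial RNA in these ratios was not tested.

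**Figure D3:**
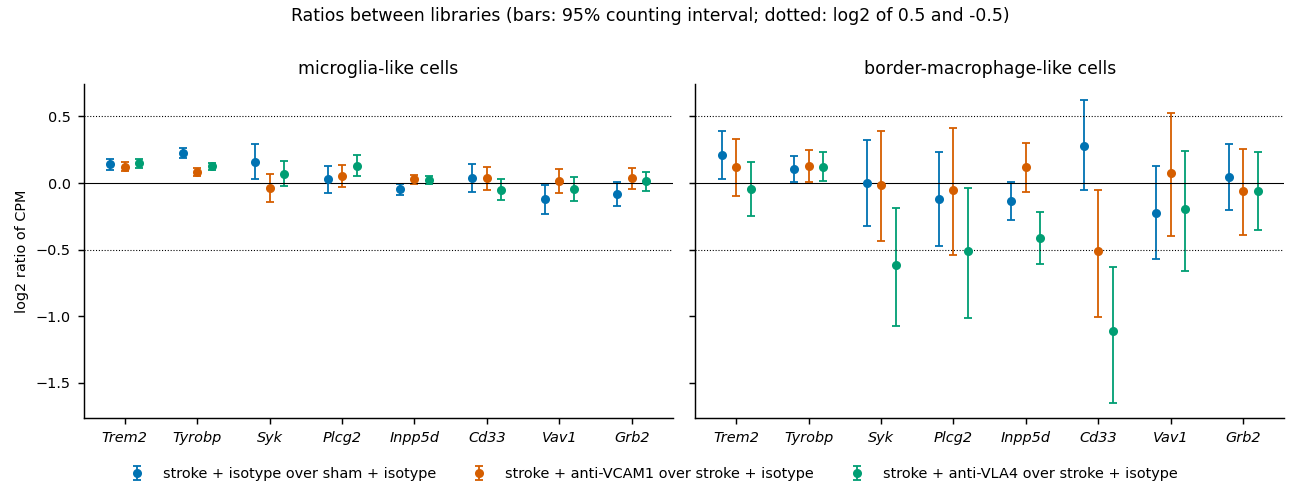
Log2 ratio of CPM of each of the 8 genes in the stroke, anti-VCAM1 and anti-VLA4 comparisons, for microglia-like and border-macrophage-like cells, with conditional binomial 95% intervals and dotted lines at 0.5 and -0.5. All microglia points lie inside the lines, and 4 border-macrophage points lie below them, Cd33 in both antibody comparisons and Syk and Plcg2 with anti-VLA4.

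Among microglia, the disease-associated sub-cluster carried more receptor and adaptor and fewer transcripts of Inpp5d, Cd33 and Plcg2 than homeostatic cells in the stroke libraries. The sub-cluster was led by Fabp5, Apoe and Lilrb4a, had 7 detected disease-associated markers such as Cst7, Lpl and Axl, and also 5 cytokine markers. The listed disease-associated markers Itgax, Spp1, Gpnmb and Ch25h did not meet the marker rule in it. It held 10, 80, 96 and 120 cells, against 215, 536, 816 and 1247 homeostatic cells. Trem2 was 1177, 1821, 1894 and 2122 CPM in disease-associated and 1271, 1426, 1455 and 1476 in homeostatic cells, log2 differences of -0.11, 0.35, 0.38 and 0.52. Tyrobp was 2244, 2822, 2864 and 3235 CPM against 1794, 1984, 2060 and 2133, differences of 0.32, 0.51, 0.47 and 0.60. The Trem2 difference was positive in the 3 stroke libraries and not in the sham library, which had 10 such cells.

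Inpp5d was 892, 986, 914 and 892 CPM in disease-associated cells and 1650, 1605, 1619 and 1611 in homeostatic cells, log2 differences of -0.89, -0.70, -0.82 and -0.85. The ranges did not overlap. Cd33 was 129, 120, 141 and 167 CPM against 240, 259, 267 and 236, differences of -0.89, -1.10, -0.92 and -0.50, the last just short of the fold. Plcg2 was 110, 173, 160 and 158 CPM against 249, 266, 264 and 271, differences of -1.17, -0.62, -0.72 and -0.78. Syk differed by -0.67, -0.37, -0.75 and -0.69 on the log2 scale, Vav1 differed by -0.12, -0.52, -0.43 and -0.29, and Grb2 by 0.23, 0.39, -0.048 and 0.087. Syk and Cd33 were thus lower in every library, each with 1 stroke library short of the fold. In the sham library the Syk difference rested on 11 UMIs in disease-associated cells, with an interval from -1.69 to 0.19. It was 0.29 there with each cell named on its own score.

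Past the fold in all 3 stroke libraries were 0 of the 8 genes on the higher side, where 5.74% of all genes tested were, and 2 on the lower side, Plcg2 and Inpp5d, where 12% were. The sub-clusters were built from these cells, so these differences are a description, though the 8 genes were left out of clustering. In the same 3 libraries the lower count was 2 (Inpp5d and Cd33) with sub-clustering at resolution 0.5, and 1 (Inpp5d) after thinning or with each cell named on its own score. It was 0 at resolution 1.5 and with the trend over gene span removed. With the span trend removed the stroke libraries gave -0.34, -0.37 and -0.41 for Inpp5d, -0.25, -0.24 and -0.32 for Plcg2 and -0.87, -0.70 and -0.22 for Cd33. Trem2 then differed by 0.43, 0.43 and 0.65. Syk differed by -0.026, -0.34 and -0.26, Vav1 by -0.20, -0.057 and 0.12, and Grb2 by 0.73, 0.36 and 0.52.

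Homeostatic cells were not uniform either, and 1 of their sub-clusters, 3, was led by heat shock genes such as Hspa1a and Hsp90aa1. In the stroke libraries they formed 4 sub-clusters with at least 50 cells each, and the disease-associated level of Trem2 and of Tyrobp lay between their lowest and their highest in each library. Homeostatic sub-cluster 5, led by Tmem141, Wdr83os and Polr2i, had 2223, 2304 and 2262 CPM of Trem2, above the disease-associated cells. Sub-cluster 2 had 1204, 1166 and 1190. By contrast, Plcg2, Inpp5d and Cd33 in disease-associated cells were below every homeostatic sub-cluster in all 3 stroke libraries. For Cd33 the lowest homeostatic values were 230, 248 and 206 CPM against 120, 141 and 167. Sub-cluster 4, 722 unnamed cells led by Ier3, Socs3 and Klf2, came near the disease-associated cells in the stroke libraries. It had 1799, 1938 and 1946 CPM of Trem2, 1134, 1079 and 987 of Inpp5d and 158, 186 and 169 of Plcg2. Its Cd33 was higher, at 213, 223 and 197. High Trem2 with low Inpp5d and Plcg2 was thus not particular to the disease-associated sub-cluster.

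**Figure D4:**
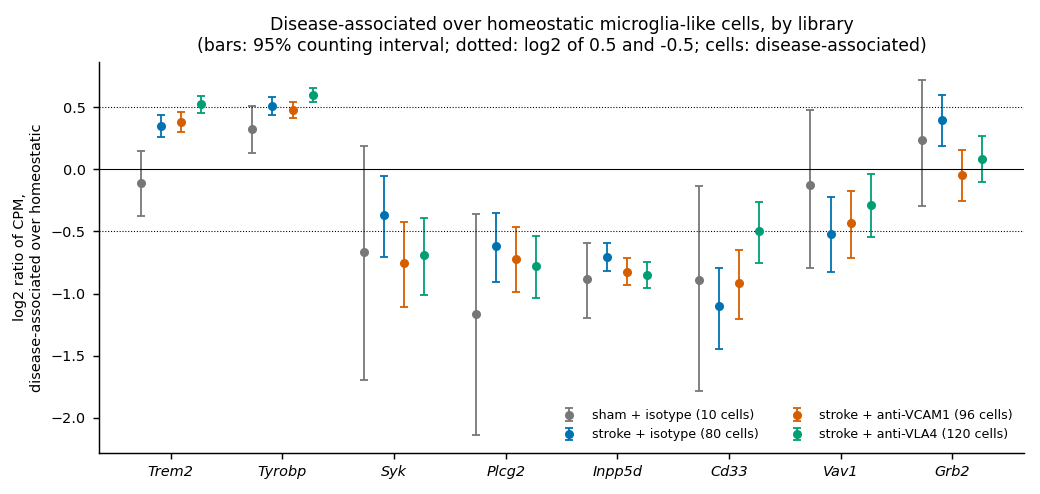
Log2 difference of CPM, disease-associated over homeostatic microglia-like cells, for each of the 8 genes, 1 point per library with its counting interval. Inpp5d and Plcg2 points are below -0.5 in each library, and Trem2 points are above 0 in the 3 stroke libraries and at -0.11 in the sham library.

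Cytokine-high cells (253, 350, 210 and 202) had 1155, 1064, 1202 and 1214 CPM of Trem2, 1476, 1447, 1423 and 1477 of Tyrobp, and 126, 176, 157 and 196 of Syk. Trem2 of these cells was highest in the antibody libraries, as in the class, and Tyrobp had no such order. Unlike in the class, Trem2 was lowest in stroke with isotype and not in the sham library. Interferon-responsive cells (10, 20, 21 and 37) had 1424, 1615, 1086 and 1428 CPM of Trem2, with no order by treatment. Sub-cluster 8, 135 unnamed cells led by Cd74 and H2-Aa, had 2055 CPM of Trem2, 2792 of Tyrobp, 1326 of Inpp5d and 116 of Syk over all libraries. Its Trem2 was 2075 CPM with anti-VCAM1 (46 cells) and 2406 with anti-VLA4 (60 cells), above the disease-associated cells of the same libraries. Its Cd33 was 224 CPM with anti-VCAM1 and 165 with anti-VLA4, against 141 and 167 in the disease-associated cells.

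Over microglia sub-clusters Trem2 and Tyrobp varied together and opposite to Syk, Plcg2 and Inpp5d, and both patterns ran along Malat1, a nuclear RNA. Sub-cluster 0 (1250 unnamed cells, median 2214.5 UMIs) had 58118 CPM of Malat1, with 393 of Trem2, 303 of Tyrobp, 243 of Syk, 418 of Plcg2 and 2709 of Inpp5d. Sub-cluster 10 (63 unnamed cells led by Apoe and Cst7, median 2774 UMIs) had 1014 CPM of Malat1, with 2710 of Trem2, 5394 of Tyrobp, 21.3 of Syk, 53.4 of Plcg2 and 197 of Inpp5d. These are opposite ends for all 5 genes. Pearson's r of log2(CPM + 10) over 30 sums of a sub-cluster in a library (at least 50 cells) was 0.99 for Trem2 with Tyrobp, -0.92 for Trem2 with Inpp5d and -0.84 for Trem2 with Syk. Cd33, Vav1 and Grb2 followed less closely, at -0.46, -0.76 and -0.70 with Trem2, and Grb2 had 0.52 with Syk, 0.36 with Vav1 and 0.019 with Cd33. With Malat1 it was -0.94 for Trem2, 0.90 for Inpp5d, 0.84 for Syk and 0.44 for Cd33. Without sub-cluster 0, over 26 sums, Trem2 with Inpp5d was -0.89, Trem2 with Malat1 was -0.82, and Grb2 with Syk, Vav1 and Cd33 was 0.24, 0.087 and -0.19. The sums share libraries and differ in depth, and no p-value is given. The part of nuclear RNA in these patterns was not tested.

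**Figure D5:**
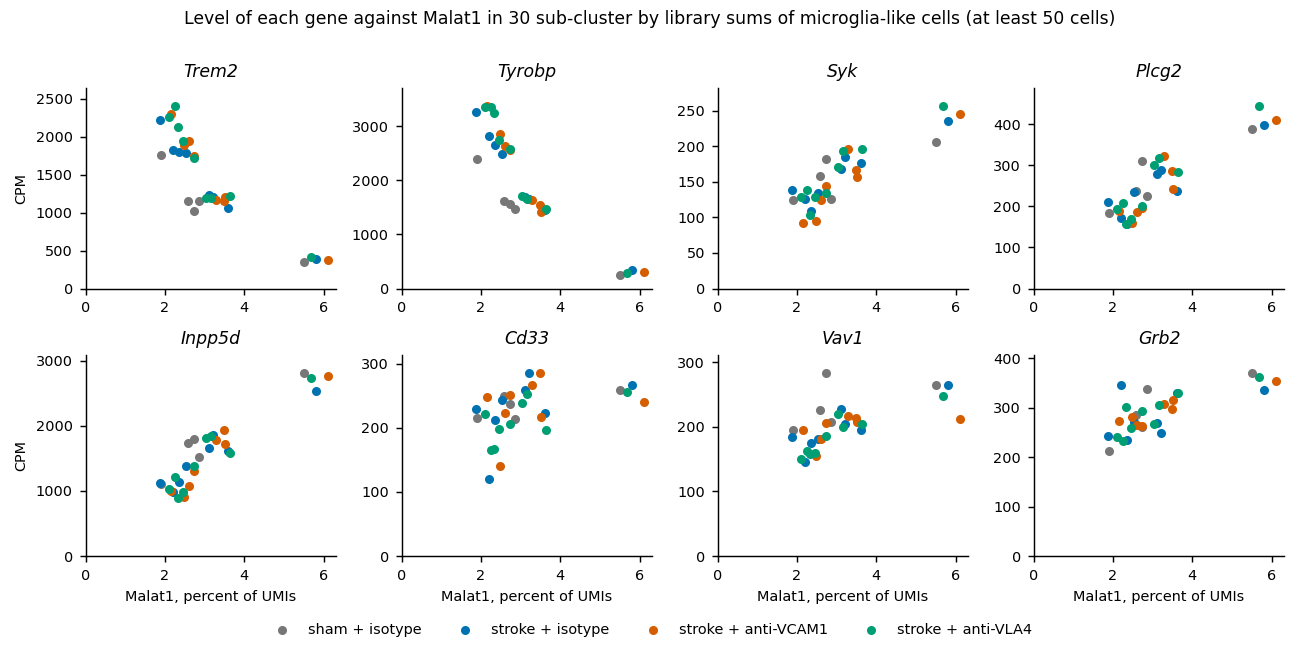
CPM of each of the 8 genes against Malat1 in percent of UMIs, 1 point per microglia sub-cluster and library with at least 50 cells, coloured by library. Trem2 and Tyrobp fall and Syk, Plcg2 and Inpp5d rise along the Malat1 axis.

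The genes whose pattern over these 30 sums was most like that of Trem2 were C1qa (r = 0.99), C1qb (0.99) and Atp6v1f (0.99). C1qa and C1qb encode chains of complement C1q, and Atp6v1f encodes a subunit of the vacuolar proton pump. Nearest to Syk were Mycbp2 (0.95), a ubiquitin ligase, Plcg2 (0.94) and Bicra (0.94), a chromatin remodelling subunit. Between libraries Malat1 was 2.78%, 3.16%, 3.22% and 3.07% of microglial UMIs.

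In border-macrophage-like cells the receptor and adaptor stayed below the fold in all 3 comparisons. Trem2 measured 486, 563, 612 and 547 CPM, and its log2 ratio in the stroke comparison was 0.21 (0.034 to 0.39), with the sham library lowest. That ratio was 0.40 without barcodes shared between libraries and 0.041 at clustering resolution 0.5. Tyrobp measured 1598, 1719, 1881 and 1871 CPM, with ratios of 0.11 (0.0062 to 0.20), 0.13 (0.0093 to 0.25) and 0.12 (0.012 to 0.23), whose intervals exclude 0. In the stroke comparison 0 of 8 genes were past the fold (22.9% of all genes tested were). In the anti-VCAM1 comparison 1 was (29% of all), and in the anti-VLA4 comparison 3 were (31.4% of all), so the members' shares are near or below that of all genes and the counts are not a result about the pathway.

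Cd33 measured 135, 164, 115 and 75.1 CPM from 116, 197, 47 and 40 UMIs. Stroke with anti-VLA4 was lowest, and the log2 ratio in that comparison was -1.11 (-1.65 to -0.63), the widest of the 8. In the anti-VCAM1 comparison it was -0.51 (-1.01 to -0.051). Syk measured 165, 165, 163 and 107 CPM, with a ratio of -0.62 with anti-VLA4 (-1.07 to -0.19). Plcg2 measured 140, 129, 124 and 90.2 CPM, with a ratio of -0.51 (-1.01 to -0.040) that became 0.13 after thinning to 1000 UMIs per cell. For Syk and Plcg2 the anti-VLA4 library alone stood lower, on 57 and 48 UMIs. Inpp5d measured 814, 742, 807 and 558 CPM, and its anti-VLA4 ratio of -0.41 (-0.61 to -0.22) did not reach the fold. Vav1 measured 149, 127, 134 and 111 CPM and Grb2 263, 272, 261 and 261.

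Markers of other cells moved with the anti-VLA4 values. All 9 microglia markers were detected in border-macrophage-like cells in each library and summed to 3782, 3828, 4138 and 2542 CPM. The 8 endothelial markers summed to 37.1, 28.3, 314 and 1736 CPM, with 3, 2, 0 and 0 of them undetected. Sub-cluster 5 of this class, led by the microglial genes Csmd3 and Nav3 with a median of 13494 UMIs per cell, held 22 of 192 cells (11.5%) in stroke with isotype and 2 of 91 (2.20%) with anti-VLA4. Sub-cluster 9, led by endothelial genes, held 1 and 8 cells. Without these sub-clusters Cd33 and Syk were past the fold with anti-VLA4, Cd33 at -0.64, and no member was with anti-VCAM1. The Trem2 ratio with anti-VLA4 went from -0.042 to 0.34 without them. With the trend over gene span removed, the Tyrobp ratio with anti-VLA4 went from 0.12 to -0.023. The Cd33 value with anti-VCAM1 also fell short of the fold with a pseudocount of 10 CPM, at resolution 2 and after thinning.

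Border-macrophage-like cells with low MHC class II genes (28, 43, 13 and 30 cells) had 280, 295, 412 and 545 CPM of Trem2. Those with high MHC class II genes (16, 23, 10 and 15 cells) had 418, 555, 490 and 670 CPM of Trem2 and 2120, 2413, 2491 and 2668 of Tyrobp. Trem2 was higher in the MHC class II-high cells of each library, but the groups held only 10 to 43 cells and no intervals are given. Malat1, a nuclear RNA, was 40039 to 47824 CPM in the MHC class II-low cells over 3 libraries. In the MHC class II-high cells of stroke with isotype it was 14170 CPM. The part of nuclear RNA in this Trem2 difference was not tested.

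Around the 8 genes, 52 others of the pathway were listed, of which 46 were measurable in microglia-like cells (at least 20 UMIs over the libraries compared). After stroke 3 were past the fold higher and 0 lower, or 6.52% against 8.75% of all genes, with a median log2 ratio of 0.013 against -0.036 for all genes. The ligand Apoe, a lipoprotein component that TREM2 binds, measured 219, 1367, 1933 and 1571 CPM, with sham far below the others, a stroke ratio of 2.63 (2.55 to 2.73). In homeostatic cells Apoe was 75.2, 403, 457 and 388 CPM, in disease-associated cells 3871, 11570, 15786 and 14459, and in border-macrophage-like cells 10985, 12428, 12379 and 17678. Outside macrophages it was 26.0, 67.1, 56.3 and 50.7 CPM in T-cell-like cells, 653, 720, 794 and 821 in endothelial-like cells and 1268, 1203, 2232 and 1773 in B-cell-like cells (14, 87, 28 and 40). The sham microglial level was thus below that of endothelial-like and B-cell-like cells. The other ligand, Clu, had 3 and 21 UMIs. Fgr, a Src family kinase, had a ratio of 1.31 (0.83 to 2.20) on 23 and 117 UMIs.

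By role, after stroke 2 of 2 ligands and 1 of 7 Src and Tec family kinases passed higher. None of 7 ITAM adaptors and receptors, 15 scaffolds and effectors, 10 brakes, 2 sheddases or 3 Ms4a genes passed in either direction. Among those with at least 200 UMIs the widest were Card9, an adaptor downstream of SYK (-0.40, -0.77 to -0.054), the brake Dok3 (-0.34) and Ms4a6c (0.33, 0.072 to 0.62). Prkcd, a protein kinase C, had -0.31 (-0.42 to -0.20), and Hcst (DAP10), an adaptor without an ITAM that also pairs with TREM2, had 0.31 (-0.0040 to 0.65). Adam10 and Adam17, proteases that shed TREM2 from the surface, were 268 and 250.02 CPM and 145 and 147 CPM in sham and stroke with isotype.

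With anti-VCAM1 2 of the 46 passed (4.35%, against 6.17% of all genes): 1 was higher, Lilrb4a, an inhibitory receptor (0.55, 0.22 to 0.96), and 1 lower, Clu (-0.65) on 21 and 11 UMIs, with a median of 0.037 against 0.035 for all genes. Apoe was just short of the fold there, at 0.50 (0.47 to 0.53). With anti-VLA4 1 passed (2.17%, against 7.48%), Lilrb4a, which was lower (-0.54, -1.03 to -0.19), with a median of 0.087 against 0.055. Lilrb4a therefore measured 10.8 CPM in stroke with isotype, 16.2 with anti-VCAM1 and 7.10 with anti-VLA4. Pik3r1, a regulatory subunit of phosphoinositide 3-kinase, had the lowest scaffold ratio with anti-VLA4, -0.31 (-0.36 to -0.26).

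In border-macrophage-like cells 3 of 49 measurable list genes were past the fold higher and 2 lower after stroke. With anti-VCAM1 2 of 47 were higher and 4 lower, and with anti-VLA4 2 of 47 were higher and 8 lower. In either direction these were 10.2%, 12.8% and 21.3% of the measurable list genes, below the 22.9%, 29% and 31.4% of all genes. Apoe was 12428 CPM in stroke with isotype and 17678 with anti-VLA4 (log2 ratio 0.51), and Fcgr1, an activating Fc receptor, had a ratio of 0.54. Among the lower genes were Malt1, a signalling protease (-1.31, -2.24 to -0.54), and Siglech, a TYROBP-coupled receptor of microglia (-0.81, -1.18 to -0.45). These border macrophage genes were chosen after their values were seen.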

How the data were processed

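Each deposited matrix holds UMI counts, not normalized, for genes by cell barcodes, which the authors made with Cell Ranger (version 7.0.1, per the file headers). The submitters' processing notes name Cell Ranger 6.0.0, Seurat 4.3.0.1, mm10 and GRCh38 without a role, and whether intronic reads were counted is not given in the sources used here. Per the labels' protocols, cells were stained for CD31 and CD45, dead cells were left out, and Chromium 3' chemistry was used for a target of 10000 cells. The labels do not say which fractions were collected.

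The members, lists, markers and tests were chosen with earlier results of these data known. Cells were kept with at least 500 UMIs, 200 genes and at most 10% mitochondrial UMIs. Scrublet, at an expected rate of 0.05, marked 9, 24, 58 and 124 cells as doublets, which were left out. Cells were clustered with scanpy 1.11.5 and leidenalg 0.10.2 (2000 variable genes, 30 components, 15 neighbours, resolution 1) without the members, the pathway lists and mitochondrial, ribosomal and haemoglobin genes. A class needed at least 3 markers in 25% of its cells at a log2 fold of 1. Subset naming was revised after the sub-clusters were seen: a subset needed at least 3 markers at a log2 fold of 0.5 and 1 of them among its 10 leading genes. Homeostatic sub-clusters were unnamed ones with at least 3 homeostatic markers higher than in the disease-associated one.

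Counts of each class were summed within a library, and log2 ratios of CPM (pseudocount 1 CPM) were taken for genes with at least 20 UMIs over both libraries, with conditional binomial 95% intervals computed without the pseudocount. CPM intervals are exact Poisson. Ratio code was tested on simulated data. GENCODE M21 (GRCm38) gave the gene spans, for 32158 of 32285 genes (99.6%). Of each list, up to 2 genes with the largest ratio and at least 200 UMIs could be named in microglia-like cells. Genes past the fold on fewer UMIs, leading genes of sub-clusters and Apoe by class were named after their values were seen. Alternatives covered scaling (TMM factors of edgeR 4.0.16), pseudocount, filters, thinning, doublets, resolution, naming, gene span, single cells, subset weights and cells left out.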

Additional observations from a re-analysis of the deposited data

How the results depend on the processing

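In microglia-like cells 0 of the 8 genes were past the fold in any comparison under every alternative run. Of 384 recomputed ratios, 344 moved by less than their counting interval, 40 moved further and 0 were counted as reversed. Changes of sign were counted apart from reversals, and small ratios did change sign. With anti-VLA4, Inpp5d and Grb2 each did so in 5 of 16 alternatives, as did Vav1 with anti-VCAM1. Tyrobp with anti-VCAM1 did so in 1 of 16, from 0.081 to -0.011. In border-macrophage-like cells 313 of 336 stayed within the counting interval, 22 moved further and 1 was counted as reversed. This was Plcg2 in the anti-VLA4 comparison, which became 0.13 after thinning to 1000 UMIs. Trem2 of these cells in the anti-VLA4 comparison changed sign in 6 of 14 alternatives. The anti-VCAM1 count of 1 there became 0 with a pseudocount of 10 CPM, at resolution 2, after thinning and without sub-clusters holding another class's markers. The anti-VLA4 count of 3 became 1 (Cd33) at resolution 0.5 and with the gene span trend removed, and the cause was not tested. That sub-cluster rule (over 25% of another class's marker level, or 2 of its markers among 10 leading genes), the omission of shared barcodes, of the sub-clusters with the highest and lowest Malat1, and the span trend between subsets were chosen after seeing the data. A lower level had been tried and took in every border-macrophage sub-cluster. The count of genes higher in disease-associated cells was 0 under each alternative. No paired analysis was possible because each group is 1 library with no replicate number. Depth limits border-macrophage-like cells most: 61 cells with anti-VCAM1 gave 47 to 772 UMIs per gene.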
